A study of Mus musculus with 6 samples.

Results

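The left ventricle of the wild type mouse was described from 3 of the 6 samples of the series, those labelled wild type 1, 2 and 3 by genotype. The mice were male C57BL/6 aged 12 to 16 weeks, with no treatment named in the labels. The remaining 3 samples came from mice carrying an Akt2 disruption, a line backcrossed to C57BL/6. Their gene signals entered no comparison. Biotin-labelled cRNA made from 12 ug of total RNA was hybridised to 1 Affymetrix mouse array per sample. The labels do not say whether the 3 wild type samples were separate animals, so the spread between them may be partly technical.

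The ventricle is built mainly of cardiomyocytes, large cells packed with sarcomeres, in which myosin thick filaments slide along actin thin filaments when calcium binds troponin C. Each beat is started by calcium leaving the sarcoplasmic reticulum through the ryanodine receptor and ended by its return through the SERCA pump, which phospholamban restrains. Energy comes mostly from fatty acids burnt in abundant mitochondria and is carried to the filaments by the phosphocreatine shuttle. Between the cardiomyocytes lie many smaller cells, among them capillary endothelium, pericytes, fibroblasts and macrophages.

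Values are linear MAS5 signals in arbitrary units. All 45037 probe sets that are not Affymetrix controls were taken, of which 34945 named 1 gene, 932 named several genes and 9160 are unnamed here. Each of 18193 genes was represented by its brightest probe set. A signal orders the brightness of probe sets and is not a number of molecules, because probe sets of one transcript differ in brightness. Among 2762 genes with several probe sets and a mean signal of 1000 or more, the brightest probe set exceeded the next one of the same gene 2.17-fold at the median, 6.03-fold at the 75th percentile and 23.8-fold at the 90th percentile. These ratios are the scale against which genes are compared below. The alpha myosin heavy chain gene Myh6 illustrates the spread, since its probe sets had means of 93896 and 6167.

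A floor was set on each array at the 95th percentile of 81 probe sets of 72 odorant, vomeronasal and trace amine receptor genes, which the ventricle is not known to use. The floor was 233.5 on wild type 1, 73.1 on wild type 2 and 78.4 on wild type 3. Above it on all 3 arrays lay 9135 genes, 50.2% of those measured, and 5778 genes lay above it on none. Another 1898 genes exceeded the floor on wild type 2 and 3 but not on wild type 1, which had the highest floor. A gene under the floor is not shown to be absent. Cox7c, a subunit of cytochrome oxidase, had 206.1, 222.1 and 221.5, and Rps16, a ribosomal protein, had 11.2, 2.1 and 0.8, although cells cannot do without either.

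Among the 3 wild type arrays, wild type 1 stood apart in its control probe sets. Spiked bacterial poly-A transcripts had a median of 51.0 on wild type 1 against 781.8 and 628.6 on wild type 2 and 3. The 18S ribosomal RNA controls had 82330 against 152.7 and 343.7. Wild type 1 was not alone in the series, since the array Akt2 knockout 1 had medians of 83.0 and 57275 for these controls. All arrays had been scaled to 1 trimmed mean, 499.8, but the median signal was 167.2 on wild type 1 against 91.0 and 88.7. Results are therefore given by array, in the order wild type 1, 2 and 3.

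Promoters of bright genes are shown because 2 bright groups, sarcomere and respiratory chain genes, held different elements in their promoters. They are RefSeq sequences of assembly GRCm38.p6, from 250 bases before to 50 bases after a transcription start, written 5′ to 3′ on the gene's strand. The CArG box, the element that serum response factor binds, is in capitals in the first set, which comes from genes of the sarcomere. The promoter of Actc1, cardiac alpha-actin, lies at chr2:114052826-114053125 on the minus strand. That of Myl3, the ventricular essential myosin light chain, lies at chr9:110763428-110763727 on the plus strand. That of Fhl2, a LIM protein of the sarcomere, lies at chr1:43163912-43164211 on the minus strand, and that of Ldb3, a Z-disc protein, at chr14:34588558-34588857 on the minus strand.
Actc1: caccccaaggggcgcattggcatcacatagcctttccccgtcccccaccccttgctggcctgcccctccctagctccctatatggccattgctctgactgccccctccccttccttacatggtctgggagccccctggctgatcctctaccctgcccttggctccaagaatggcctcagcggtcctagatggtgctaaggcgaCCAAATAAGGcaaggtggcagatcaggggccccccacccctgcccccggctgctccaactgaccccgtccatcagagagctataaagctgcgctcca
Myl3: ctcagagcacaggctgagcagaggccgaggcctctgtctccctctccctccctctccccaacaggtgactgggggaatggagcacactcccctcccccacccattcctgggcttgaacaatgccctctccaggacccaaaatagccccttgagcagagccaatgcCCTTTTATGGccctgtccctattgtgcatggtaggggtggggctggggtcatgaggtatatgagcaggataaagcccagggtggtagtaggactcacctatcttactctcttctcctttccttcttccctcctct
Fhl2: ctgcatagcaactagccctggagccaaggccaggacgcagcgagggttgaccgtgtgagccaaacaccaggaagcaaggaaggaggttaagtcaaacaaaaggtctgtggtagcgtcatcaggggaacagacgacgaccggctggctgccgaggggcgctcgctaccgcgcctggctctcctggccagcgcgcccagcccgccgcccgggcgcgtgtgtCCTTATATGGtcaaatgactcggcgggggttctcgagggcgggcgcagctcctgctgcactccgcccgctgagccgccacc
Ldb3: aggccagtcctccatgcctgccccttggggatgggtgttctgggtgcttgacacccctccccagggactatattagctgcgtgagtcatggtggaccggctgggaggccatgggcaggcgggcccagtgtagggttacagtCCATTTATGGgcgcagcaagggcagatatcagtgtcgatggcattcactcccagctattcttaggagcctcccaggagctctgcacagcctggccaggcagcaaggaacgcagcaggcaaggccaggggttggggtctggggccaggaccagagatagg

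A CArG box on either strand was found in 9 of 34 promoters of 24 sarcomere genes, 26.5%, against 1.63% of all 32851 promoters in the table and 1.35% of the 18109 promoters of genes on the array. The 9 promoters belonged to 7 genes: Acta1, Actc1, Fhl2, Ldb3, Myl3, Myom1 and Nebl. It was in 0 of 72 promoters of the respiratory chain and in 4.12% of 97 promoters of the 100 brightest genes. A count of 0 in 72 promoters is near these background shares. The MEF2 box, another muscle element, was in 11.8% of sarcomere promoters, against 3.19% of all and 2.10% of those of array genes. CATTCC, the core of the element bound by TEAD factors, was in 29.4%, against 14.7% and 13.2%. AGATAA, which factors of the GATA family bind, was in 20.6%, against 11.2% and 8.09%. TATAAA, the TATA box, was in 17.6%, against 13.6% and 9.77%. These are shares of matching letters and do not show that a factor binds there.

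The respiratory chain promoters held a different element more often. AAGGTCA, the core of the site that estrogen-related receptors bind, was in 8 of 72 of them, 11.1%. It was in 4.72% of all promoters, 3.92% of those of array genes and 0 of 34 sarcomere promoters. A count of 0 in 34 promoters is near these background shares. One of the 8 promoters belongs to Ndufb4, which was under the floor on every array. AAGGTCA is in capitals in the promoters of 2 subunits of ATP synthase, and the first carries it on the opposite strand, where it reads TGACCTT. Atp5g3 encodes a subunit of the proton-turned ring, and its promoter lies at chr2:73911277-73911576 on the minus strand. Atp5k encodes a small subunit of the same enzyme, and its promoter lies at chr5:108434350-108434649 on the minus strand. In Atp5k the element lies after the transcription start.
Atp5g3: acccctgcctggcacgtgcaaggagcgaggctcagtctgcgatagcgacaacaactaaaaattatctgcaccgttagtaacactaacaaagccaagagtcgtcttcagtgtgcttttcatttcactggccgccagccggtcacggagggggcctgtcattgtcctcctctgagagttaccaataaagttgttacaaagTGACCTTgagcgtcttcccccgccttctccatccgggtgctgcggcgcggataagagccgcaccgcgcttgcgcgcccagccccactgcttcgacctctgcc
Atp5k: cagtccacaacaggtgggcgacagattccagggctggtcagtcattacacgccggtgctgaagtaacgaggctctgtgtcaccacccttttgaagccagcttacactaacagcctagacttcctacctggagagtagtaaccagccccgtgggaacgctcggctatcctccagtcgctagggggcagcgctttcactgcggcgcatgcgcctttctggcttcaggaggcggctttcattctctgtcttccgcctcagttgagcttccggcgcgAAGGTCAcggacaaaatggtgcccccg

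The brightest genes were those of contraction and of mitochondrial energy supply. Of the 30 genes with the highest mean signal, 8 encode sarcomere proteins, 11 subunits of the respiratory chain and ATP synthase, 2 proteins of fatty acid uptake, 2 proteins of the phosphocreatine shuttle and 2 of calcium cycling. The remaining 5 comprised 1 ribosomal protein, Rps29, and 4 genes in none of the lists, ND5, Mb, Tpt1 and Slc25a3. Among the 100 brightest, 13 were sarcomere genes, 43 respiratory chain genes and 7 ribosomal protein genes. The 100 held 30.6%, 17.6% and 19.9% of the summed signal on the 3 arrays (22.7% ± 6.97, SD, n = 3), so wild type 1 carried more of its signal in few genes than the other arrays.

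**Figure D1:**
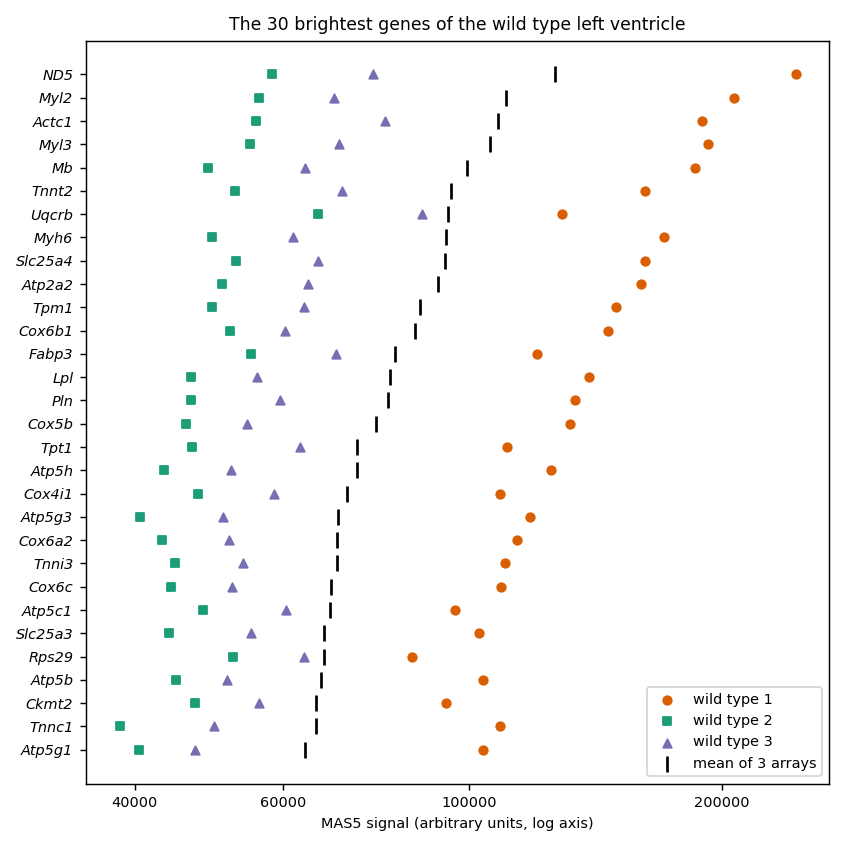
MAS5 signal (log axis, arbitrary units) of the 30 brightest genes on wild type 1 (circles), 2 (squares) and 3 (triangles), with the mean of the 3 arrays as a vertical bar. Every gene was brightest on wild type 1, where the 30 genes ran from 85456 to 244587, and wild type 2 and 3 lay close together between 38388 and 87826.

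The highest mean belonged to ND5, the mitochondrially encoded subunit of complex I, with 244587, 58322 and 76821 on the 3 arrays. Myl2, the ventricular regulatory myosin light chain, followed with 206483, 56149 and 68981. Actc1 had 189306, 55768 and 79447. In each of these genes wild type 1 was far above the other arrays, and the SD over the 3 arrays was 102618, 83338 and 71253. Myl3 had 192263, 54905 and 70041. Mb, the oxygen-storing myoglobin, had 185493, 48949 and 63793. Uqcrb, a subunit of complex III, had 128958, 66060 and 87826 and was the brightest gene on both wild type 2 and wild type 3.

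Wild type 1 exceeded the mean of wild type 2 and 3 in all 30, by 1.48 to 3.62-fold with a median of 2.55, which ranking by the mean favours. Wild type 3 exceeded wild type 2 in all 30 as well, by 1.15 to 1.43-fold with a median of 1.25. From the dimmest to the brightest of the 30, signals spanned 2.86-fold on wild type 1, 1.72-fold on wild type 2 and 1.86-fold on wild type 3. The order within the 30 is thus set largely by wild type 1, which weighs most in a mean of linear signals. Membership varied less: 20 of the 30 were among the 30 brightest genes of every array, 27 were shared by the lists of wild type 2 and 3, and 22 and 21 by wild type 1 with each of them. Of the 100 brightest, 78 were among the 100 of every array.

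Sarcomere genes were above the floor throughout, 27 of 27, with a median of the mean signals of 34846. The thin filament regulators were close to one another on each array. Tnnt2, the tropomyosin-binding troponin subunit, had 162047, 52575 and 70614. Tnni3, the inhibitory subunit, had 110274, 44656 and 53767. Tnnc1, the calcium-binding subunit, had 108935, 38388 and 49755. All of them were highest on wild type 1 and lowest on wild type 2. Ttn, the giant spring protein titin, ranked 16th on wild type 1 with 126452 but 116th and 93rd on the others with 28762 and 36199. Lower in the list were the Z-disc protein Ldb3 at 22746 ± 5377 (SD, n = 3), desmin (Des) at 18459 ± 1494 and skeletal alpha-actin (Acta1) at 13718 ± 1719. The dimmest was Myh7, the slow beta myosin heavy chain, with 2401, 1618 and 917.5.

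Energy genes filled most of the remaining places. Of 83 respiratory chain genes measured, 79 were above the floor, with a median of 37439. Fatty acid uptake and oxidation had 20 of 20 above it, with a median of 24763. Its brightest members were Fabp3, the heart fatty acid binding protein, at 120560, 55053 and 69353, and Lpl, which frees fatty acids from blood lipids, at 138687, 46665 and 55856. The citric acid cycle had 17 of 17 with a median of 22169, and glycolysis 13 of 13 with a median of 19806. Glycolysis was led by Aldoa at 63621, 37455 and 43554. Fabp3 was brighter than Aldoa on each array, by less than the median ratio between probe sets of one gene. The phosphocreatine shuttle had 7 of 7 with a median of 38089, led by the ADP/ATP carrier Slc25a4 and the mitochondrial creatine kinase Ckmt2. The cytosolic ribosome had 40 of 46 with a median of 21079, and antioxidant genes had 12 of 12 with a median of 10559.

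Calcium handling was bright as well, with 14 of 15 genes above the floor. Atp2a2, the SERCA pump, had 160284, 50821 and 64291, and its inhibitor Pln had 133792, 46669 and 59578. Casq2, the calcium store protein, had 27845, 22759 and 24359. Ryr2, the release channel, had 22911, 8401 and 9098, which again put wild type 1 above the other arrays. Far dimmer were Cacna1c, the pore of the L-type calcium channel, at 2321 ± 850.4 (SD, n = 3) and Slc8a1, the sodium-calcium exchanger, at 763.8 ± 153.4. The member under the floor was Fkbp1b, at 26.7, 39.2 and 68.1.

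Cardiac transcription factors were dimmer than structural genes, with 17 of 19 above the floor and a median of 1680. Hopx, a homeodomain protein without DNA binding, was the exception at 42815, 28392 and 31663. Mef2a had 7621, 6431 and 6386, and Gata6 had 2039, 3407 and 3216. Nkx2-5 had 3349, 1789 and 1624. These factors differed in direction between wild type 1 and the other arrays, Mef2a and Nkx2-5 being higher there and Gata6 lower. Hand1 and Hey2 were not above the floor on every array.

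For most cardiac families 1 paralogue was the brightest on every array. Families of related genes were compared where at least 2 members were measured, which held for 77 of 79. In 70 of them the same member led on all 3 arrays and lay above the floor. In 19 the leader exceeded the next member by more than the 90th percentile of the ratio between probe sets of one gene, 23.8-fold, a ratio that few genes show between their own probe sets. In 18 families the ratio lay between the 75th and 90th percentiles, in 14 between the median and the 75th, and in 19 under the median. In 6 the order changed between arrays, and in 1, the sodium channel pores, no measured member was above the floor.

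**Figure D2:**
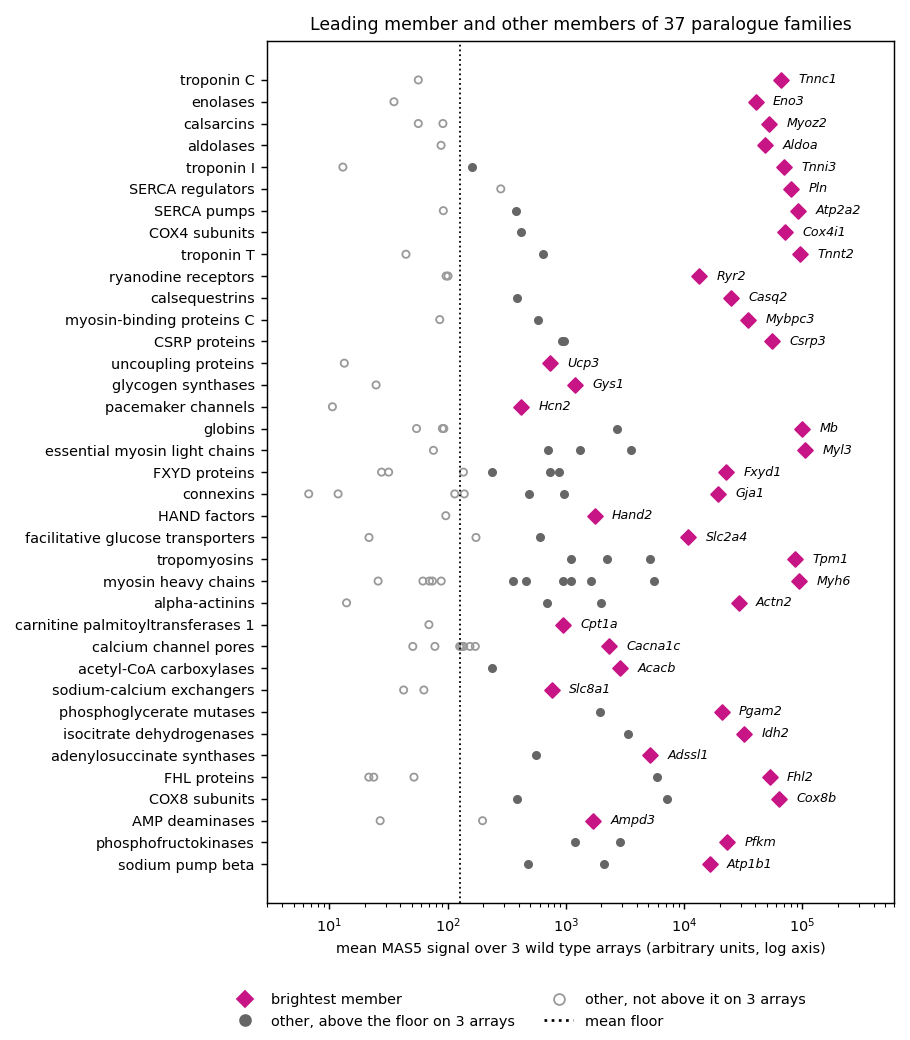
Mean MAS5 signal over 3 wild type arrays (log axis, arbitrary units) of the members of the 37 families whose leader exceeded the next member by more than the 75th percentile of the ratio between probe sets of one gene. Diamonds are the leaders, filled circles other members above the floor on all 3 arrays, open circles members not above it, and the dotted line the mean floor; the families at the top have their next member at or near the floor.

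Each troponin family had a clear leader. Tnni3 exceeded Tnni2, the fast skeletal form, 435.6-fold by the means, and Tnni2 had 290.6, 96.5 and 92.0. Tnnt2 exceeded the slow skeletal form Tnnt1 149.7-fold, with Tnnt1 at 726, 458.7 and 720.8. Tnnc1 exceeded Tnnc2 at least 511.9-fold, where Tnnc2, which was not above the floor, was raised to it on each array, as were other such members given with "at least". Tnni1, the troponin I of the fetal heart, had 24.7, 9.1 and 5.3 and was above the floor on no array.

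Myosin gave a more graded picture. Myh6 led the heavy chains 16.7-fold over Myh9, a non-muscle form, at 6864, 4925 and 5044, and the next sarcomeric form was Myh7. Myl3 led the essential light chains with Myl1, the fast skeletal form, behind it at 1685, 4249 and 4835. That ratio was 114.1 on wild type 1 and 12.9 and 14.5 on the others, and without wild type 1 it was 13.8 and fell under the margin. Myl2 led the regulatory chains 4.37-fold over Myl12a, a non-muscle form at 27280, 22770 and 25909. Mybpc3, the cardiac myosin-binding protein C, exceeded Mybpc2 59.8-fold.

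Among the other filament and Z-disc families, Myoz2, a calcineurin-binding Z-disc protein, exceeded Myoz1 at least 336.9-fold, and Csrp3, the muscle LIM protein, exceeded Csrp1 58.1-fold. Tpm1 led the tropomyosins 17.0-fold over Tpm4, Actn2 the alpha-actinins 14.5-fold over Actn4 and Fhl2 the FHL proteins 8.89-fold over Fhl1. Actins were less separate, with Actc1 2.43-fold above Actb, whose probe sets had means of 44467 and 7540. The muscle ankyrin repeat proteins were led by Ankrd1, with 50036, 31677 and 34045, 5.06-fold over Ankrd23.

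In calcium handling, Atp2a2 exceeded Atp2a3 244.1-fold and Casq2 exceeded Casq1, the skeletal form, 64.7-fold. Ryr2 exceeded Ryr3 at least 77.3-fold by the means, but 70.1-fold and 53.7-fold on wild type 2 and 3, where Ryr3 was above the floor. Pln exceeded sarcolipin (Sln), the SERCA inhibitor of atrium and skeletal muscle, at least 269.6-fold by the means. On wild type 3, where Sln was above the floor, the ratio was 102.0. Fxyd1, phospholemman, a regulator of the sodium pump, exceeded Fxyd5 25.9-fold by the means but 19.3-fold and 20.6-fold on wild type 2 and 3, and without wild type 1 the ratio of 19.9 was under the margin. Gja1, the ventricular gap junction protein connexin 43, had 18040, 18831 and 21564 and led 20.2-fold over Gjc1. Gja5, a connexin of the atrium and conduction system, had 10.2, 7.1 and 2.8. Hcn2, a pacemaker channel, was dim at 421.4 ± 94.4 (SD, n = 3), and with the next member at the floor its ratio was at least 3.28.

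Metabolic families were led in part by muscle forms. Eno3, the muscle enolase, exceeded Eno2 at least 313.2-fold and Aldoa exceeded Aldoc at least 375.7-fold, but another member of each family was not analysed here. Cox4i1, the form most tissues use, exceeded Cox4i2 170.8-fold. Cox8b, a heart and muscle subunit, led Cox8a 8.86-fold, and Cox6a2, likewise a muscle subunit, led Cox6a1 3.46-fold. Cox7a2 was 1.30-fold over Cox7a1, the heart and muscle form, and ahead of it on each array. That ratio was under the median between probe sets of one gene, so their order could not be told. Ampd3 led the AMP deaminases at 1700 ± 420.0 (SD, n = 3), while Ampd1, the skeletal muscle form, was under the floor on every array at 33.0, 31.9 and 15.9. Pgam2 led Pgam1 10.8-fold, Pfkm led Pfkl 8.07-fold, and the mitochondrial Idh2 led Idh1 9.54-fold. Slc2a4, the insulin-responsive glucose transporter, had 12855, 8872 and 10888 and led Slc2a1 17.96-fold. Gys1, the muscle glycogen synthase, and Ucp3, an uncoupling protein, led next members that lay under the floor, by at least 9.39-fold and 5.73-fold. Mb led cytoglobin (Cygb) 36.6-fold. Without wild type 1 that ratio was 28.0, over 23.8 but under the margin, which was recomputed there from wild type 2 and 3. Beta-globin genes were not analysed here.

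Several families had no paralogue ahead by more than the spread between probe sets. Nppb, B-type natriuretic peptide, had 21456, 28397 and 29589, 1.96-fold over Nppa, A-type natriuretic peptide. Ckmt2 was 1.22-fold over Ckm, and Pdk4, a kinase that switches off pyruvate oxidation, was 1.06-fold over Pdk2. Akt1 had 2651, 2664 and 2718 and Akt2 2363, 2561 and 2505, a ratio of 1.08. The order could not be told from the brightness in any of these. In malate dehydrogenases, small heat shock proteins, PGC-1 coactivators, inward rectifiers, laminin alpha chains and catalytic subunits of protein phosphatase 1, different members led on different arrays. Ppargc1b, for example, had 4793 on wild type 1, above Ppargc1a at 2196, while on wild type 3 it had 2522 against 3327.

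Cells of the vessel wall, stroma and immune system were visible beside the cardiomyocytes. Of 271 markers in 36 lists of cell types and organs, 115 were above the floor on all 3 arrays. Against the 50.2% of all genes, ventricular cardiomyocytes had 13 of 13 markers above it, down to the ventricular factor Irx4 at 1484, 562.9 and 415.5. On the same count there were 14 of 14 for endothelial cells, 9 of 9 for capillary endothelium and 8 of 8 for pericytes. Fibroblasts had 13 of 14, macrophages 12 of 14 and smooth muscle cells 7 of 9. In tissue RNA, fewer cells of a type and less RNA per cell cannot be told apart. Several markers are shared with cardiomyocytes, such as Lpl and Cd36 in the capillary list and Des in the smooth muscle list, so the brightest member of a list is not its best evidence.

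**Figure D3:**
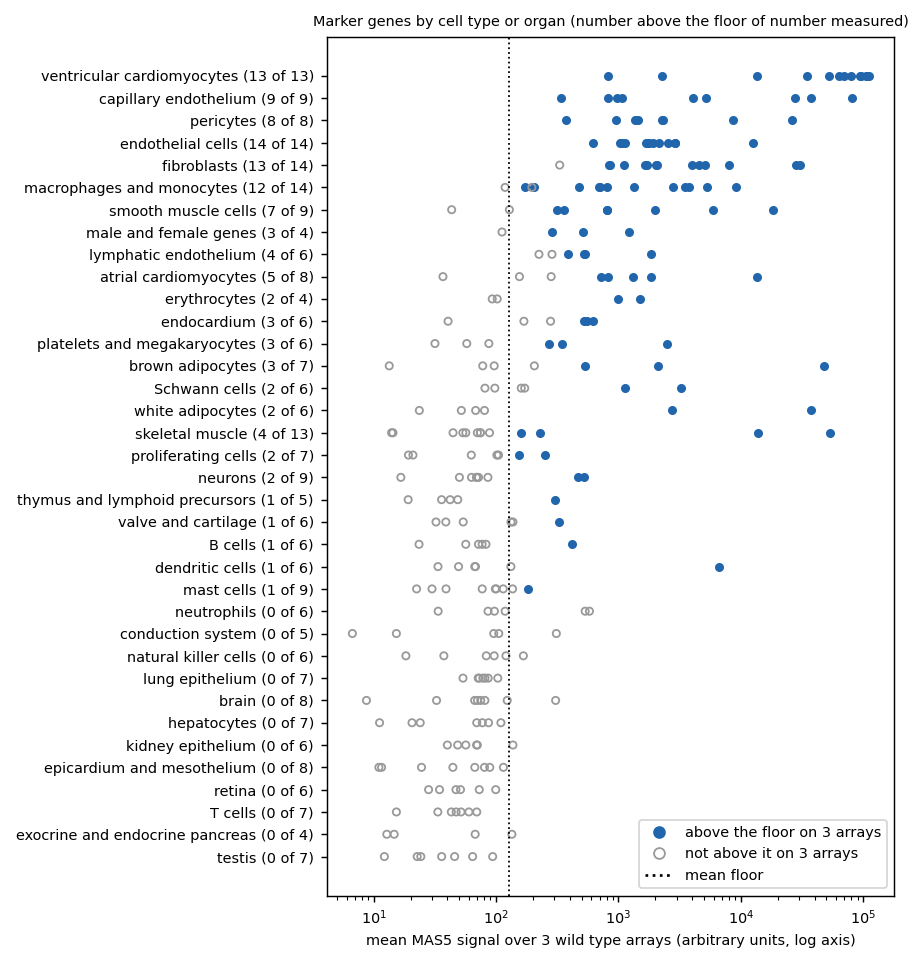
Mean MAS5 signal over 3 wild type arrays (log axis, arbitrary units) of marker genes, 1 row for each cell type or organ, with the number above the floor of the number measured. Filled points are above the floor on all 3 arrays, open points are not, and the dotted line is the mean floor; the ventricular cardiomyocyte, endothelial and pericyte lists lie wholly to the right of the floor, and most markers of other organs, of the conduction system and of the epicardium lie left of it.

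The endothelial genes differed in how the arrays compared. Pecam1, an adhesion molecule of endothelial junctions, had 1840, 1657 and 1812, and Tek, the angiopoietin receptor, had 1697, 1697 and 1858. Cdh5, the endothelial cadherin, had 953.6, 2368 and 2381, and Kdr, the main VEGF receptor, had 1504, 2592 and 2338. Tie1, another endothelial receptor kinase, had 1463, 882.2 and 883.1. Pecam1 and Tek were even across the arrays, Cdh5 and Kdr were lower on wild type 1, and Tie1 was higher there. Gpihbp1, which holds lipoprotein lipase on capillaries, had 4175, 5479 and 6032. Aqp1, a water channel, was the brightest of the endothelial list at 14196, 11883 and 11465. Lymphatic endothelium had 4 of 6 markers above the floor on all 3 arrays, a count near the 50.2% of all genes. Lyve1 led them with 515.9, 2306 and 2671, and Prox1 had 544.3, 488.4 and 536. Mmrn1 and Reln were above the floor on wild type 2 and 3 alone.

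Pericytes were led by Rgs5, a regulator of G protein signalling, with 18722, 28590 and 30767. Abcc9 and Kcnj8, which together form a potassium channel of mural cells, had means of 8566 ± 1557 and 2283 ± 91.2 (SD, n = 3). Abcc9 is also known in cardiomyocytes. Among the smooth muscle markers Acta2 had 7856, 4587 and 5355 and Tagln 1059, 725 and 631, and Cnn1 was above the floor on wild type 1 alone with 266, 57.5 and 61.7. Smooth muscle markers above the floor were thus mostly higher on wild type 1, 6 of 7 exceeding both other arrays, against 51.2% of all genes above the floor, a share raised by the higher floor of that array. Of 5 with a geometric mean over the arrays of 500 or more, chosen without the floor, 5 exceeded both, against 42.4% of such genes. Among these, Smtn with 2067, 2059 and 1801 and Des with 19509, 16749 and 19121 exceeded the nearer array only slightly. Acta2, Tagln and Mylk exceeded both by more.

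Fibroblast genes were led by the proteoglycan gene Dcn, with 16644, 36537 and 37379, and by Gsn, an actin-severing protein that other cells make too. Col3a1, a fibrillar collagen, had 8626, 8109 and 7341. The fibroblast receptor Pdgfra had 828.6, 2180 and 2109 and the transcription factor Tcf21 had 880.1, 964.6 and 723.5. Dcn and Pdgfra were both lower on wild type 1, and Col3a1 and Tcf21 were not. The matrix list had 17 of 17 genes above the floor with a median of 3991.

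Among immune cells, macrophages had the most markers above the floor. Lyz2, lysozyme, had 7116, 9865 and 10547, and Csf1r, the receptor for the growth factor of macrophages, had 4749, 5616 and 5474. The complement gene C1qa had 2336, 4084 and 4164, and the tissue macrophage gene Adgre1 had 578.5, 937.6 and 881.4. Wild type 1 was the lowest array in each. Cd74, an antigen-presentation gene in the dendritic cell list, had 4163, 7791 and 8104, while Flt3, Itgax and Xcr1 were not above the floor on every array. Ighm was the only B cell marker above it of 6, with 271.6, 448.8 and 537.1. T cell and natural killer cell lists had 0 of 7 and 0 of 6 above it.

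Blood cells gave weaker traces. Pf4, a platelet granule chemokine and the brightest of the platelet list, had 2260, 2611 and 2611. That list had 3 of 6 markers above the floor, against 50.2% of all genes. Gp1bb, Gp5 and Gp9 were not above it on every array. Alas2, of haem synthesis in red cells, had 544, 2201 and 1729. The red cell list that holds it had 2 of 4 markers above the floor, against 50.2% of all genes. Its defining alpha-globin gene Hba-a1 had 199.9, 51.0 and 28.1, under the floor on every array, by the only probe set naming it alone. Probe sets naming several genes were left out, so alpha-globin RNA is not shown to be low. Slc4a1, the anion exchanger of the red cell membrane, had 34.5, 132.3 and 139.5, under the floor on wild type 1 alone. S100a8 and S100a9, granule proteins of neutrophils, had 40.8, 1029 and 667.3 and 66.3, 1068 and 468.9, so both were well above the floor on wild type 2 and 3 and under it on wild type 1. The other 4 neutrophil markers were not above the floor on every array.

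Other lists tell what else the dissected tissue may have held. Epicardium and mesothelium had 0 of 8 markers above the floor and the conduction system 0 of 5 on all 3 arrays. On wild type 2 and 3, where the floor was lower, 3 of the 5 conduction markers and 1 of the 8 epicardial ones exceeded it, among them Tbx3, a factor of the conduction system, with 172.3, 372.5 and 387.4. White adipocytes had 2 of 6, Fabp4 and Adipor2, and their defining adipokine Adipoq had 71.8, 93.4 and 39.0. Brown adipocytes had 3 of 7, among them Cidea at 1954, 2195 and 2190, while Ucp1, which defines them, had 24.8, 7.3 and 8.1. Skeletal muscle had 4 of 13. Of its defining markers Ckm and Acta1, which the heart also uses, were above the floor, and Myh4 and Actn3 were not above it on every array. In 8 lists of other organs 1 of 50 markers was above it on all 3 arrays, Cd1d1 of the thymus list, against 50.2% of all genes. On wild type 2 and 3, 2 of 8 brain, 1 of 4 pancreas and 1 of 6 kidney markers exceeded it as well. Among these was Slc17a7 of the brain list, with 189.4, 316.9 and 413.5. The male label was matched by Eif2s3y, a Y-linked gene, at 978.1, 1362 and 1287, while Xist, the RNA of the silenced X chromosome of females, was near the floor with 140.5, 81.4 and 113.5.

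Some atrial genes were lowest on wild type 2. Myl7, the atrial regulatory light chain, had 1101, 96.5 and 1246, and Myl4, the atrial essential light chain, had 2014, 376 and 1560. Sln had 205.2, 56.6 and 583.9. In all of them wild type 2 was the lowest. Myl7 and Myl4 were several times brighter on wild type 1 and 3, while Sln was above the floor on wild type 3 alone. The other Myl4 probe set had 377.3, 99.6 and 96.9, so wild type 3 was not higher by it. Nppa, which the ventricle also makes, had 12804, 14476 and 13298, Stard10 had 1719, 2075 and 1698, and Kcnj3, a potassium channel, had 987.6, 551.4 and 603.4. Nppa and Stard10 were highest on wild type 2 and Kcnj3 was close on wild type 2 and 3. Myl7 and Myl4 were among 22 genes, 0.241% of 9135, that were at least 2-fold lower on wild type 2 than on both other arrays. Of 8 atrial markers measured, 5 were above the floor, against 50.2% of all genes. The summed signal of the 8 was 19015, 17806 and 19207, and Bmp10 was under the floor on every array. How much atrial tissue each sample held was not tested.

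**Figure D4:**
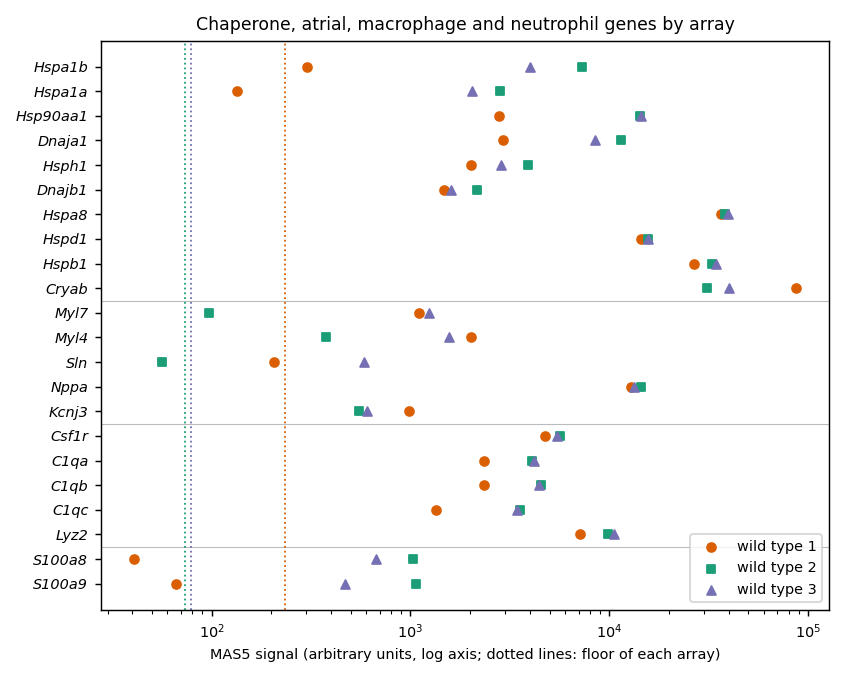
MAS5 signal (log axis, arbitrary units) on wild type 1 (circles), 2 (squares) and 3 (triangles) of chaperone, atrial, macrophage and neutrophil genes, with the floor of each array as a dotted line of its colour. Wild type 1 is lowest for the inducible chaperones, for the macrophage genes shown and for S100a8 and S100a9, and wild type 2 is lowest for Myl7, Myl4 and Sln.

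Wild type 1 ranked genes broadly as the others did but departed from them gene by gene. Over the 9135 genes above the floor, log2 signals of wild type 2 and 3 correlated at 0.990 (Pearson; Spearman 0.989), against 0.912 (0.894) for wild type 1 with 2 and 0.918 (0.897) for wild type 1 with 3. These correlations are across genes, which are not independent replicates, and they describe the arrays. Signals lay within 2-fold of each other for 99.4% of genes between wild type 2 and 3, and for 83.0% and 84.0% between wild type 1 and each of them. The level of a gene on wild type 1 was thus a looser guide to its level on the other arrays than they were to each other.

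The genes above the floor are not an even sample for wild type 1, whose floor of 233.5 was the highest. A gene with signals under 233.5 on wild type 2 and 3 enters only if it is higher on wild type 1, and genes low on wild type 1, such as S100a8, S100a9 and Hspa1a, drop out. The arrays were therefore also compared over the 6296 genes whose geometric mean of the 3 signals was 500 or more, chosen without the floor. Over these, signals of wild type 2 and 3 correlated at 0.991 (Spearman 0.985), against 0.899 (0.840) and 0.907 (0.847) for wild type 1 with each of them.

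Over these 6296 genes, 195 (3.10%) were at least 2-fold higher on wild type 1 than on both other arrays and 438 (6.96%) at least 2-fold lower. For wild type 2 the counts were 2 higher (0.0318%) and 3 lower (0.0476%), and for wild type 3 they were 0 and 3. After quantile normalization the counts for wild type 1 were 226 higher and 400 lower. Over the 9135 genes above the floor the balance was the other way, with 685 (7.50%) higher and 462 (5.06%) lower, or 459 and 473 after quantile normalization. For wild type 2 and for wild type 3 they were 1 higher (0.0109%) and 22 lower (0.241%) each. Of those 685, 390 were in the class of 914 genes with mean signals of 77.65 to 221.6 on wild type 2 and 3, where the floor of wild type 1 admits a gene only if it is higher there. Whether more genes were higher or lower on wild type 1 thus depended on which genes were counted.

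**Figure D5:**
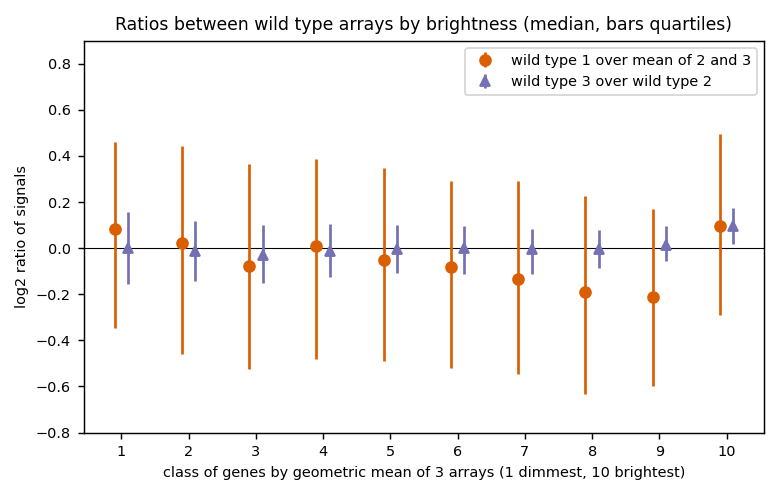
Median log2 ratio of signals in 10 classes of the 6296 genes with a geometric mean of 500 or more, by that mean, with bars from the lower to the upper quartile, for wild type 1 over the mean of 2 and 3 (circles) and wild type 3 over 2 (triangles). Medians of wild type 1 run from 0.09 in class 10 down to -0.21 in class 9, with wide quartiles, and those of wild type 3 over 2 stay between -0.03 and 0.09.

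The ratio of wild type 1 to the others depended on brightness. Over the 6296 genes its median was -0.06 on the log2 scale. It was 0.08 in the dimmest class, -0.21 in class 9 and 0.81 over the 100 brightest genes. The very brightest genes were thus higher on wild type 1 and the bright genes just below them somewhat lower. After quantile normalization those class values were 0.05, -0.03 and 0.02. The sarcomere list had a median log2 ratio of 0.77 and the respiratory chain 0.58, and after quantile normalization 0.10 and 0.03.

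Heat shock chaperones held some of the largest deficits of wild type 1. Hspa1b, an inducible HSP70, had 302.1, 7295 and 4000, the largest deficit of wild type 1 among the 9135 genes, and all 3 of its probe sets were low there. Hspa1a, its near-identical neighbour, which shares sequence with it, had 134.8, 2816 and 2033, under the floor on wild type 1. Hsp90aa1, the inducible HSP90, had 2789, 14195 and 14448, and Dnaja1, a co-chaperone of HSP70, had 2934, 11399 and 8423. In these genes wild type 1 lay far below both other arrays. The constitutive Hspa8 had 36431, 38101 and 39274 and the mitochondrial Hspd1 14333, 15677 and 15684, nearly even. Small heat shock genes went both ways. Cryab, Hspb7, Hspb6, Hspb2 and Hspb3 were higher on wild type 1. Hspb1, with 26676, 32889 and 34338, and Hspb8, with 12018, 16153 and 15603, were lower there. The chaperone list counted next does not hold Hspb2 and Hspb3, both above the floor and higher on wild type 1, so its shares leave them out. Of its 13 genes above the floor, 10 were lower on wild type 1 than on both others, against 39.6% of all genes. The median log2 ratio of the 13 was -0.35, or -0.49 after quantile normalization. Of 14 in the list with a geometric mean of 500 or more, 11 were lower, against 48.9% of such genes. Immediate early genes did not share this: their median log2 ratio was 0.08, and Dusp1 had 5596, 5244 and 6338.

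Macrophage genes were also lower on wild type 1, in 10 of 12 above the floor against 39.6% of all genes, with a median log2 ratio of -0.67, or -0.64 after quantile normalization. Of 9 with a geometric mean of 500 or more, 9 were lower, against 48.9%. Endothelial and fibroblast lists had medians of 0.01 and 0.04. The spike-in and 18S controls differed between the same arrays, and their part in these differences was not tested.

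Other large deficits on wild type 1 were often those of 1 probe set. Usp14, a deubiquitinase of the proteasome, had 401.9, 3072 and 3443, but another of its probe sets had 782.4, 741.8 and 804.2. Mtch2, a mitochondrial outer membrane protein, had 1415, 10250 and 11055 by one and 6972, 7232 and 7955 by another. Srsf2, a splicing factor, had 933.9, 6888 and 5280 by one and 2882, 782.3 and 673.3 by another, with the opposite direction. Frmd4b and Tex10 also had probe sets that did not share the deficit. It was seen in every probe set of Timp4, an inhibitor of metalloproteinases (502.8, 2761 and 4032 in the brightest), of Carnmt1 (1867, 9364 and 10828) and of Rgcc, a capillary gene (1047, 5242 and 5929). The metallothionein Mt2 had 1 probe set, with 889.9, 5537 and 5766.

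Among the largest excesses on wild type 1, Malat1, a long nuclear RNA, had 42203, 5481 and 4108 and stood out by its level. Of its 7 probe sets, 6 were higher on wild type 1 than the mean of the others and 1 was lower, with 8259, 12324 and 9622. Rrad, a small GTPase of muscle that restrains calcium channels, had 8915, 1596 and 1461. Fam78a had 1554, 243.9 and 278.8. The other genes of this group, Comp, C130075A20Rik, Kcnq1ot1, Crb3, Slc9a8, 9430083A17Rik and Pomc, had signals of 499.3 to 877.6 on wild type 1 and of 83 to 172 on the other arrays, under the floor of wild type 1. These excesses were not in every probe set: 1 other probe set of Kcnq1ot1 and 1 of Pomc were not higher on wild type 1 than on both others. The remaining ones of Kcnq1ot1, Crb3 and Slc9a8 were higher there, some by far less. All 20 genes named for these deficits and excesses kept their direction after quantile normalization.

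With wild type 1 left out, the 30 brightest genes held 8 sarcomere, 9 respiratory chain, 2 fatty acid, 3 phosphocreatine shuttle and 2 calcium cycling genes, and 24 of the 30 were the same genes as with it. Without it 11111 genes and 150 markers were above the floor, against 9135 and 115 with it, and 17 families had a clear leader, with Myl3, Fxyd1 and Mb lost and Hand2 gained. The share of signal in the 100 brightest genes was 18.7% without it, against 22.7% with it.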

How the data were processed

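The deposited table holds intensities, 1 linear signal per probe set and array, computed with MAS5 per the submitters' processing notes; the sources used here give no version or settings, and no detection calls entered. MAS5 sets perfect-match against mismatch probes and scales each array by 1 factor, which leaves differences in the shape of the distribution in place. That scaling was kept, with no pseudocount. The 64 controls entered no gene value. Names came from the platform annotation, and probe sets naming several genes were left out. Of 18193 genes, 18032 matched a RefSeq table (GRCm38.p6) by gene ID, all with the same symbol. Promoters came from RefSeq, and 14452 genes had one.

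Everything is a description: 1 group has nothing to test. Means and SD are over 3 arrays, whose number limits the precision. The steps were run with Python 3.11.15, pandas 2.3.3 and numpy 2.4.6 and were checked on simulated data. The genes named were drawn from the 30 brightest, from the leader and next member of each family with others above the floor, and from the Akt genes. Others came from the 3 brightest and the defining markers under the floor of each list, and from the 10 highest and 10 lowest ratios of wild type 1 to the others. Not every gene under this rule was named. The lists of Schwann cells, endocardium, neurons, mast cells, valve and proliferating cells were not described. Further list members were named after their values were seen. The members, families and lists were chosen with earlier results of these data known. Wild type 1 was also compared over genes chosen by geometric mean, without the floor, a choice made after seeing the data. Alternatives were quantile normalization, other probe sets, floors, margins and averages, and leaving out each array.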

Additional observations from a re-analysis of the deposited data

How the results depend on the processing

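Of 46 values recomputed under other settings, 40 stayed within 1.5 times the value given (for the share of signal, within its SD) and 6 moved further. The genes at which wild type 1 was 2-fold apart from both others, 1147, became 737 when the probe sets of each gene were averaged and 3031 at 1.5-fold, and 941 after quantile normalization. Over genes with a geometric mean of 500 or more and no floor, a choice made after seeing the data, there were 633. The 19 clear paralogue leaders became 37 with the margin at the 75th percentile. They became 10 without probe sets whose ID marks them as matching several transcripts, where 6 of the lost families had fewer than 2 members left. The margin of 23.8-fold belongs to the main setting. It was recomputed from the probe sets and arrays of each other setting, so a leader could be lost at an unchanged ratio. With the next member raised to the floor, a setting chosen after seeing the data, 16 were left. The 20 brightest genes shared by every array became 78 when 100 genes were taken. Leaving out each array in turn gave 9260 to 11111 genes above the floor, 22 to 27 shared brightest genes, 17 to 21 clear leaders, 117 to 150 markers above the floor and 18.7 to 25.2% of signal in the 100 brightest genes. Without wild type 2, Tpm1 and Gja1 became clear leaders. No paired analysis was possible because 1 group was described and nothing was tested. The floor limits what can be seen: genes dimmer than 233.5 on wild type 1 were not told from background there.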
